A study of Gallus gallus with 5 samples.

Results

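H3R2me2s regions were defined as the stretches of the chicken genome that lay under a peak in both H3R2me2s libraries and touched no peak of the input. Joining those bases gave 69388 regions of 42.4 Mb, out of 73377 shared regions of 46.0 Mb, so 94.6% of the shared regions were kept (95% Wilson interval 94.4 to 94.7, counting error only). The other 3989 shared regions were dropped because at least 1 bp of them lay under an input peak. Of all peaks of the 2 libraries, 99391 of 103231 (replicate 1) and 113142 of 120536 (replicate 2) touched no input peak. The share kept is therefore no trait of shared regions. The kept regions covered 4.11% of the spanned genome, which is the sum over chromosomes of the highest peak end in the lists used, 1033 Mb. Input peaks covered 0.206% of it.

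H3R2me2s is histone H3 dimethylated on arginine 2 with 1 methyl group on each terminal nitrogen of the side chain. Enzymes such as PRMT5, a type II arginine methyltransferase, make symmetrically dimethylated arginine, and in mammalian cells this mark has been described in euchromatin, where WDR5, a shared subunit of H3K4 methyltransferase complexes, can bind it. Immature (polychromatic) erythrocytes of birds keep their nucleus, which grows compact as the linker histone H5 accumulates. Most bird chromosomes are microchromosomes, which are small, gene-dense and GC-rich, beside a few large macrochromosomes.

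All 3 libraries used came from the chromatin of such erythrocytes in G0, fixed with 0.5% formaldehyde and sheared to about 200 bp, with no treatment named in the labels. The same antibody was used for a SOLiD library (replicate 1) and an Illumina library (replicate 2), and 1 Illumina library of input chromatin, without antibody, is the control. The series calls the replicates biological, but the labels name no animals, sex or age, and they give 2 different breed names, Lohmann and Bovan, for every sample. The series holds 5 samples in all, and the libraries of the other mark were not used. After removal of repeated positions the headers gave 14.2 M tags for replicate 1, 35.1 M for replicate 2 and 27.1 M for the input. The number in the name of the alignment file was 11 in the header and 10 in the labels of replicate 2, and 10 and 12 for the input, so every statement on these libraries rests on their labels. The lists held 103231, 120536 and 10193 peaks. Tags were 47 bp long in replicate 1 and 100 bp in replicate 2, and a size selection of 100 to 250 bp is given for replicate 1. Replicate number went together with platform, tag size, depth, caller version, cutoff and use of a control, which cannot be told apart. With 2 libraries against 1 the smallest p of a 1-sided exact permutation test is 0.333, so no test was made and the values of both libraries are given side by side. No genome sequence or gene annotation of the build of these files was used, so regions are given by position, and whether they lay at erythroid genes was not determined.

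H3R2me2s regions were narrow. The median width was 540 bp, with quartiles at 417 and 722 bp, and the widest region spanned 3900 bp. Regions of 300 to 499 bp made up 35.9% of all, and regions of 1000 bp or more, 9.23% up to 1999 bp and 0.503% above, held 19.2 and 1.95% of the bases. The peaks behind them were wider, with a median of 792 bp in replicate 1 and 733 bp in replicate 2. In the whole lists the medians were 705 and 618 bp, and 155 bp in the input. The widest peak was 21703 bp in replicate 1 and 4945 bp in replicate 2. A region is only the part under both lists, so its width is also set by the rule. The callers set the lower limit: the narrowest peak was 334 bp in replicate 2 and 99 bp in the input, in both cases the fragment length d of the header, and 176 bp in replicate 1, where d was 151 bp. Regions under 334 bp can therefore only be parts of a replicate 2 peak, and 5555 regions (8.01%) were that narrow, 1169 of them under 100 bp.

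**Figure D1:**
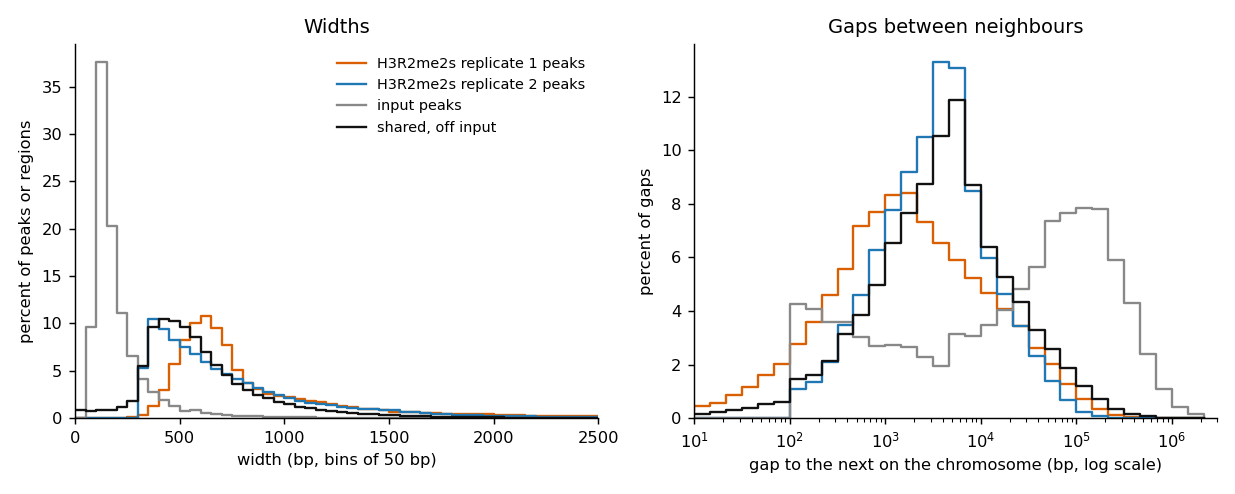
Widths (left, in bins of 50 bp, cut at 2500 bp) and gaps between neighbours (right, bp, log scale, gaps under 10 bp not drawn) as percent of the peaks or gaps of each list; the black line is the 69388 H3R2me2s regions. Their median width of 540 bp lies below those of both H3R2me2s lists and above the input's 155 bp, and their gaps are most frequent at a few kb, where input gaps are few.

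In 42.3% of the regions the whole replicate 2 peak lay inside the replicate 1 peak, in 47.5% each edge came from a different list, and in the rest the replicate 1 peak lay inside the replicate 2 peak. Of all regions, 75.03% were the sole region of both their peaks. Of the 64581 replicate 1 peaks with a region, 4040 held 2 or more, up to 6, and of the 64587 replicate 2 peaks with one, 4629 held 2 or more, up to 4. The summits of both lists lay a median of 172 bp apart, and 123 bp in regions that were the sole region of both peaks. Both summits fell inside the region in 68.1% and neither did in 5.87%.

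Width differed little between chromosome classes. The median was 534 bp on macrochromosomes (1 to 5), 535 bp on intermediate chromosomes (6 to 10), 553 bp on microchromosomes (11 and up) and 493 bp on Z. In replicate 1 alone the macrochromosome and microchromosome medians were 668 and 781 bp, and in replicate 2 they were 609 and 641 bp. The microchromosome median was thus the larger in both lists, with a bigger step in replicate 1.

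The 5 widest regions were chr27:3384234-3388133 (3900 bp), chr1:125685698-125689590 (3893 bp), chr1:3771478-3775346 (3869 bp), chr17:1028955-1032653 (3699 bp) and chr27:3866813-3870486 (3674 bp). Their replicate 1 peaks were 4193 to 5758 bp wide with 416 to 828 tags, and their replicate 2 peaks were 3674 to 4293 bp wide with a pileup of 128 to 169 at the summit. Both regions on chromosome 1 stood alone, with the nearest neighbour 36066 and 193818 bp away, while those on chromosomes 17 and 27 had neighbours within 216 to 3243 bp. The nearest input peak lay 6.26 to 71.2 kb from these regions.

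Peaks that carried a region were wider and stronger in tags and pileup than the others, as a description of what entered. A wider peak meets the other list more readily and holds more tags, so part of this is built in. The shares below were not corrected for width. Of the replicate 1 peaks, 62.6% held a region, and of the replicate 2 peaks, 53.6% did. Replicate 1 peaks with a region had a median of 49 tags and a width of 761 bp, against 35 tags and 637 bp without one. Replicate 2 peaks with a region had a median pileup of 73 and a width of 703 bp, against 45 and 542 bp. By tags in replicate 1 this share was 44.3% in the lowest decile and 80.9% in the highest. By pileup in replicate 2 it was 17.6% in the lowest decile, 83.6% in the ninth and 77.4% in the highest, where 25.6% of the peaks lay on an input peak.

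Ranked by the deposited fold enrichment, the order in replicate 2 was another. There the lowest decile, with folds of 1.18 to 1.89, had the highest share of peaks with a region, 87.6%, the fifth the lowest, 39.8%, and the highest 53.4%. In replicate 1 the share was 54.7% in the lowest decile by fold and 77.9% in the highest. Across the 69388 regions, tags in replicate 1 and pileup in replicate 2 went together (Spearman rho 0.57), fold enrichment ran in opposite order (rho -0.31), and widths of the parent peaks were weakly related (rho 0.14). These correlations are across regions, which share libraries, depth and neighbours, and are given without a test. Both libraries had more tags or a higher pileup where regions were crowded: with the number of other regions within 10 kb, rho was 0.42 for tags and 0.45 for pileup. Tags are counted over the whole replicate 1 peak. Regions cut from 1 wide peak share its tags and are neighbours, so part of the rho for tags is built in. With the number of other regions within 10 kb, fold enrichment had a rho of 0.35 in replicate 1, whose background came from a control library. It was -0.62 in replicate 2, whose background came from the library itself over 10 kb. Within macrochromosomes these were 0.25 and -0.55, and within microchromosomes 0.28 and -0.52. The part of the background model in the order of the folds was not tested.

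**Figure D2:**
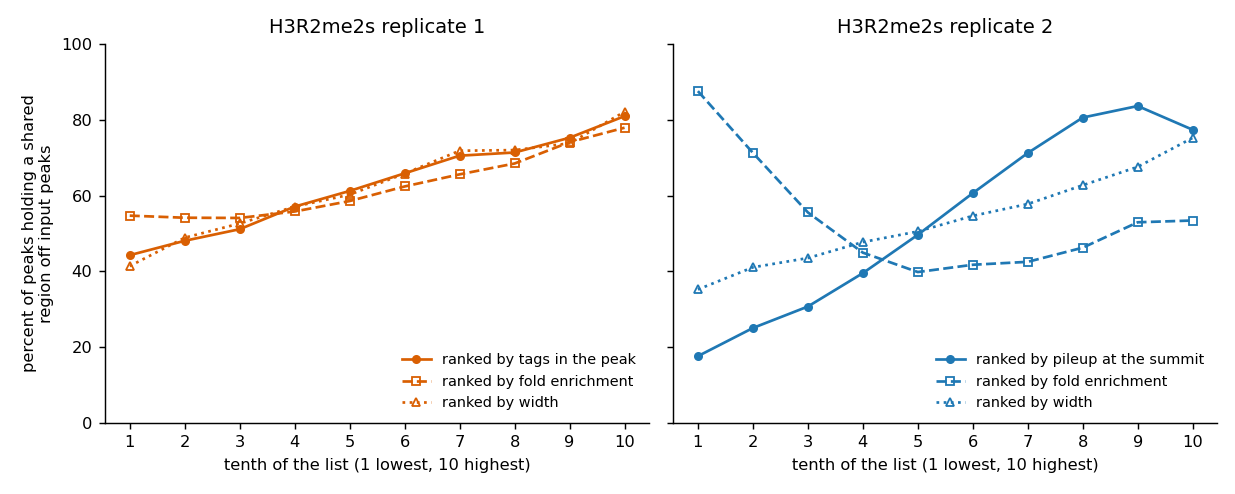
Percent of peaks that hold an H3R2me2s region (y axis, 0 to 100) in each decile of replicate 1 (left) and replicate 2 (right), ranked by tags or pileup, by fold enrichment and by width. In replicate 2 the share rises with pileup from 17.6% to 83.6% in the ninth decile and is 77.4% in the highest. By fold its highest value, 87.6%, is in the lowest decile.

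Crowded and lone regions differed in their peaks more than in their own width. For the 9644 regions (13.9%) with no other region within 10 kb, the medians were 524 bp, 36 tags and a pileup of 52. For the 10285 regions (14.8%) with 6 or more others within 10 kb, they were 519 bp, 106 tags and a pileup of 103. Median fold enrichment in replicate 1 was 8.87 for lone and 13.1 for crowded regions, and in replicate 2 it was 3.91 and 1.98. The replicate 1 peak behind a region was 654 bp wide for lone and 1337 bp for crowded regions, and the replicate 2 peak 699 and 666 bp. Of the lone regions 66.6% were on macrochromosomes, and of the crowded ones 60.8% were on microchromosomes.

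The 5 regions of best mean rank by p-value over both lists were 3 wide regions and 2 short pieces of wider peaks. Across all regions the −log10 p of both lists had a Spearman rho of -0.051. The mean rank is thus a rule for naming regions and no sign that the libraries rank regions alike. Of these, chr1:581702-583675, chr4:29121-30542 and chr2:119544322-119546127 were 1974, 1422 and 1806 bp wide. Their replicate 1 peaks held 998, 940 and 481 tags at a fold of 20, 53.1 and 34.1, and their replicate 2 peaks had a pileup of 256, 172 and 200 at a fold of 3.51, 4.95 and 4.10. In the same order, their summits lay 1177, 68 and 523 bp apart, and the nearest input peak was 9.30, 5.05 and 101 kb away. The chromosome 1 region was itself part of a replicate 1 peak of 7366 bp. The other two, chr25:692284-692448 and chr20:1444528-1444620, were pieces of 165 and 93 bp whose summits lay 2592 and 2632 bp apart, with input peaks 0.313 and 0.151 kb away. Their replicate 1 peaks were 2251 and 2615 bp wide and their replicate 2 peaks 2989 and 725 bp, so each piece is a small part of its peaks.

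Neighbouring regions lay a few kb apart, with long stretches without a shared region between groups of them. The median gap was 4200 bp and the mean 14214 bp. Built from the upper 50% of peaks by fold, the median gap was 28071 bp, and by tags and pileup it was 4082 bp. Quartiles of the gaps between all regions were 1374 and 10738 bp, and 73.8% of the 69356 gaps were 10 kb or shorter. Gaps over 100 kb were 2.51% of all (1744 gaps) and held 33.7% of the length between regions. Gaps that long held 22.6% of the length between peaks in replicate 1 and 7.46% in replicate 2. A region needs a peak in both lists, so many of these stretches held peaks of 1 list. The ratio of SD to mean of the gaps was 2.76, beside 2.99 in replicate 1, 2.47 in replicate 2 and 1.72 in the input. Input peaks were spaced otherwise, with a median gap of 32922 bp, 21.3% of gaps up to 1 kb and 29.9% over 100 kb.

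Spacing changed with chromosome class in both libraries. The median gap between regions was 6156 bp on macrochromosomes, 3881 bp on intermediate chromosomes, 2862 bp on microchromosomes and 18625 bp on Z. In replicate 1 the medians were 3263, 1528, 913 and 11726 bp in the same order, and in replicate 2 they were 4309, 3255, 2563 and 8062 bp. The order of the 4 classes was the same in both lists. The input had its shortest median gap on Z, 1565 bp, and 45153, 38835 and 18850 bp on the other classes. A region on a microchromosome had a mean of 4.04 other regions within 10 kb and 40.02 within 100 kb, and one on a macrochromosome had 2.24 and 19.5. On Z 47.4% of the regions had none within 10 kb.

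The 5 longest gaps lay on 5 macrochromosomes. They were chr4:19252802-20863484 (1611 kb), chr1:76821809-78427486 (1606 kb), chr2:52272324-53860233 (1588 kb), chr3:11584956-13168226 (1583 kb) and chr5:6506081-8048309 (1542 kb). Replicate 1 had 1 to 8 peaks in each, replicate 2 had 5 to 12 and the input 1 to 8, and these covered at most 0.697, 0.591 and 0.262% of a gap. Each H3R2me2s list, like the regions, had 9 gaps of 1467799 to 2154435 bp, and neither list had any from 681292 to 1467799 bp. Gaps in the assembly were not masked, and whether these long gaps are missing sequence or chromatin without peaks was not tested.

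Tight clusters of H3R2me2s regions were few. Taking 5 or more regions in a row with gaps of at most 2 kb as a cluster, 503 clusters held 2755 regions, 3.97% of all. Of these clusters 343 had 5 regions and 3 had 9, the most found, and their median span was 6.67 kb with 44.1% of it covered. Microchromosomes held 294 clusters, 1.67 per Mb, macrochromosomes 115, 0.184 per Mb, and Z held 1. By the same rule 39.5% of replicate 1 peaks and 3.77% of replicate 2 peaks were in clusters, so the share of regions was near that of replicate 2. With gaps of up to 1 kb the share was 0.483% of the regions, in 65 clusters, against 19.9 and 0.159% of the peaks. With gaps of up to 5 kb it was 36.1% of the regions, against 61.3 and 45.7% of the peaks. With gaps of up to 10 kb it was 65.2% of the regions, in 3262 runs of at most 165 regions, against 74.3 and 74.5% of the peaks, so both lists gave nearly the same share at this scale.

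The cluster of longest span was chr8:4263718-4280422, 16.7 kb with 9 regions and no input peak. The 9 regions were, in order, 505, 586, 560, 1483, 99, 423, 352, 2390 and 1030 bp wide, with gaps of 138 to 1952 bp. In replicate 1, 6 peaks covered 82.3% of it, and 1 peak of 5713 bp with 614 tags held the first 3 regions. In replicate 2, 9 peaks covered 46.7%, with pileups of 102 to 155 and folds of 1.42 to 2.16. The next were chr6:23735685-23751241 (15.6 kb, 7 regions), chr28:2076507-2090169 (13.7 kb, 9 regions), chr19:5872129-5885764 (13.6 kb, 8 regions) and chr13:10501823-10515419 (13.6 kb, 9 regions). The last 5 of the first 10 were chr1:87109234-87122602, chr3:10008250-10021517, chr27:1612809-1626068, chr28:2179672-2192908 and chr6:23669993-23682817, of 12.8 to 13.4 kb with 7 or 8 regions. Replicate 1 covered 50.9 to 87.8% of these 10 clusters and replicate 2 covered 28.8 to 47.5%. Only the cluster on chromosome 19 held an input peak, 1 peak over 0.777% of it. The pair on chromosome 28 lay within 100 kb of each other, as did the pair on chromosome 6.

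**Figure D3:**
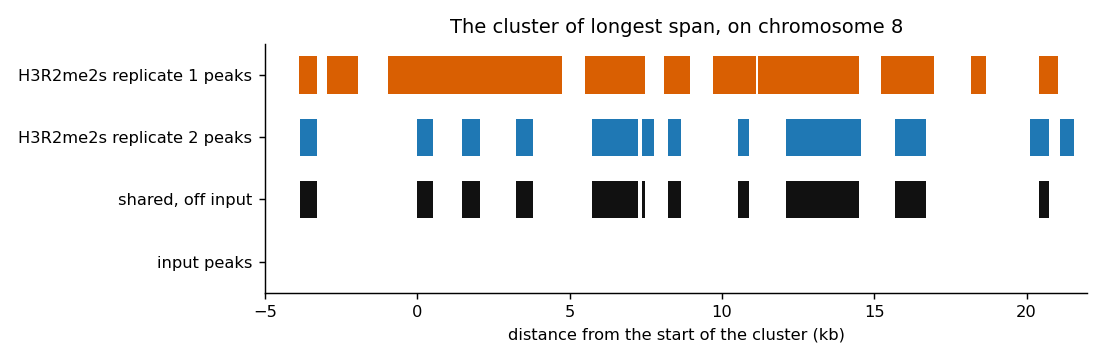
Peaks of each list as blocks along the cluster of longest span on chromosome 8, in kb from its start. Replicate 1 covers 82.3% of the 16.7 kb in 6 peaks and replicate 2 covers 46.7% in 9. The 9 black blocks from 0 to 16.7 kb are the regions of the cluster, and black blocks outside this span are other regions. The input has none.

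Most 100 kb bins held H3R2me2s, at very unequal density. Of 10347 bins of 100 kb, 1629 (15.7%) held no region, and 264 of these held no peak of any of the 3 lists. A replicate 1 peak lay in 731 of the bins without a region, and a replicate 2 peak in 1296. The median bin held 3 regions and the fullest 40. The densest 10% of whole bins held 37.7% of the regions, and 61.8% of those bins were on microchromosomes. The same measure gave 37.9% of the peaks in replicate 1, 24.6% in replicate 2 and 53.1% in the input. Counts per bin followed each other in both libraries, with a Spearman rho of 0.89 over 10313 bins, 0.86 within macrochromosomes, 0.85 within microchromosomes and 0.66 on Z. With the input the rho was 0.17 for replicate 1 and 0.18 for replicate 2. Input peaks were absent from 54.7% of whole bins, which limits what those values can show.

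The 5 bins of highest cover were on 5 different small or intermediate chromosomes. In chr26:4600001-4700000, 39 regions covered 28.6%, in chr18:9800001-9900000, 30 covered 28.4%, in chr7:23600001-23700000, 33 covered 28.2%, in chr17:5500001-5600000, 40 covered 26.5%, and in chr13:10200001-10300000, 32 covered 26.5%. Replicate 1 peaks covered 55.4 to 68.2% of these bins and replicate 2 peaks 30.04 to 35.2%. Input peaks covered 0 to 0.909%, with none in the bins on chromosomes 7 and 17.

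H3R2me2s regions were denser on small chromosomes, and this held in both libraries. There were 46.3 regions per Mb on macrochromosomes, 81.6 on intermediate chromosomes, 147 on microchromosomes and 20.8 on Z. Microchromosomes span 17.1% of the genome and held 37.5% of the regions, and macrochromosomes span 60.6% and held 41.8%. The ratio of microchromosomes to macrochromosomes was 3.18 for regions, 3.21 for replicate 1 peaks, 1.95 for replicate 2 peaks and 1.23 for input peaks. Among regions from the stronger 50% of peaks by fold the ratio was 1.77, and by tags and pileup 5.43. By cover instead of number it was 3.41 for regions, 4.39 and 2.05 for the replicates and 1.35 for the input. Among the 27 autosomes with more than 1 Mb, density ran from 38.9 per Mb on chromosome 2 to 250.1 on chromosome 26, where regions covered 16.6%. Chromosomes 24 (214 per Mb) and 23 (205 per Mb) followed. The Spearman rho of density with spanned length over the 27 was -0.93, against -0.46 for input peaks. Input peaks were called against the input's own background over 10 kb, so their density does not measure input depth by chromosome.

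Of the classes given here, microchromosomes had the highest share of replicate 2 peaks with a region. Of replicate 2 peaks, 69.9% held a region on microchromosomes, 59.3% on intermediate chromosomes, 43.4% on macrochromosomes and 41.7% on Z. Replicate 1 peaks covered 25.03, 11.53, 5.70 and 3.34% of these classes in the same order. Seen from replicate 1 the order turned, with 60.3, 62.5 and 65.6% on the first 3 classes and 49.8% on Z. A peak meets the other list more readily where that list covers more sequence. The shares were not corrected for cover, so they do not show on which class the libraries matched best. Of the 52625 replicate 2 peaks without any replicate 1 peak on them, 63.8% were on macrochromosomes, as were 51.9% of all replicate 2 peaks. The median distance of these 52625 peaks to the nearest replicate 1 peak was 4.37 kb. The 35175 peaks found in replicate 1 alone were closer to the other list, at a median of 1.09 kb. Of these 35175 peaks 40.9% were on microchromosomes, where peaks are denser, against 18.0% of the 52625. The distances were not corrected for the density of the other list, so they do not show which list matched better.

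**Figure D4:**
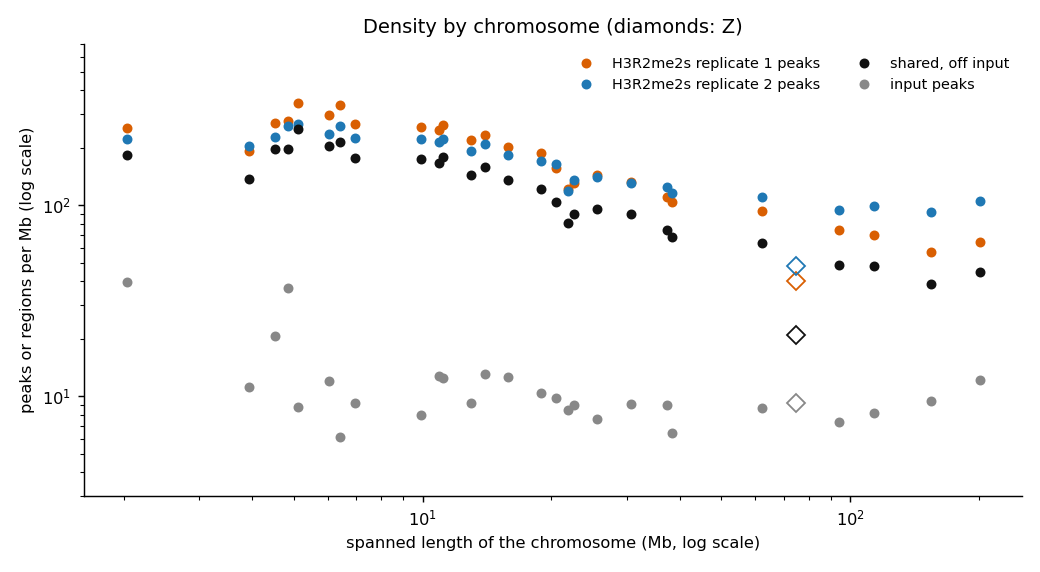
Peaks or regions per Mb (y axis, log scale) against spanned length (x axis, Mb, log scale) for the 27 autosomes above 1 Mb (dots) and Z (diamonds). H3R2me2s regions (black) fall from 250.1 per Mb on chromosome 26 to 38.9 on chromosome 2, Z lies below all autosomes at 20.8, and input peaks (grey) show a smaller slope.

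On macrochromosomes H3R2me2s was denser toward the ends. Within 5 Mb of either end of chromosomes 1 to 5 there were 103.3 regions per Mb, and 41.4 in the interior, a ratio of 2.50. The ratio was 1.36 in the upper 50% by fold and 4.05 in the upper 50% by tags and pileup. It was 2.62 for replicate 1, 1.83 for replicate 2 and 1.46 for the input. Each of the 5 chromosomes had a ratio above 1 for regions, from 1.93 on chromosome 2 to 3.39 on chromosome 4, and in both libraries. The input ratio was 0.616 on chromosome 4, below both libraries, but on chromosomes 1 and 5 it was 1.92 and 2.02, above replicate 2 at 1.61 and 1.98. Ends of the same chromosome were unequal: chromosome 4 had 193 regions per Mb in its first 5 Mb and 70.4 in its last, chromosome 5 had 75.8 and 173, and chromosome 2 had 103 and 38.8, while chromosome 3 had 106 and 97.8. The outermost Mb had 177 regions per Mb, and the density further inward was uneven. It was 69.4 at 5 to 6 Mb, 37.9 at 6 to 7 Mb and 62.3 at 14 to 15 Mb.

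**Figure D5:**
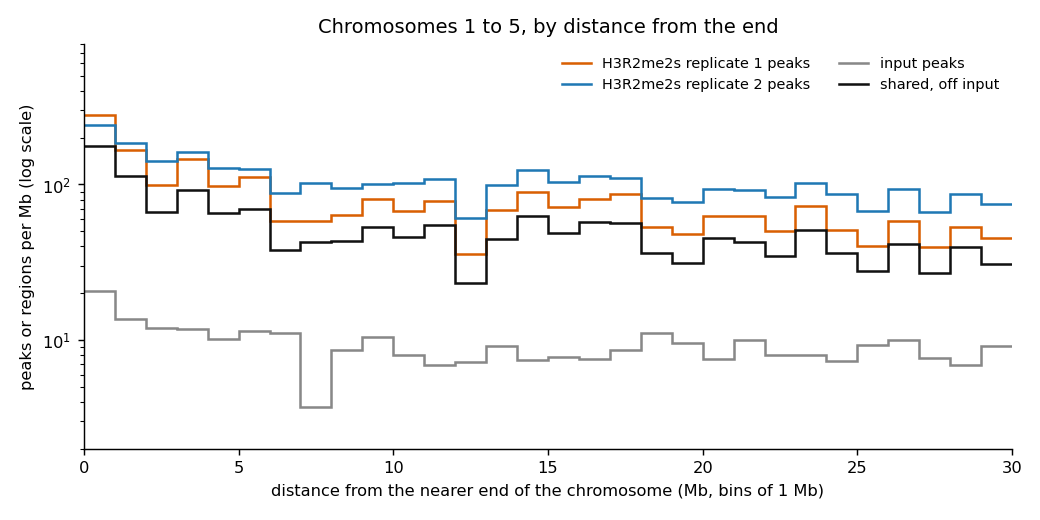
Peaks or regions per Mb (y axis, log scale) on chromosomes 1 to 5 by distance from the nearer end (x axis, Mb, bins of 1 Mb, 2 ends of 5 chromosomes pooled). H3R2me2s regions (black) are at 177 per Mb in the outermost Mb, 37.9 at 6 to 7 Mb and 62.3 at 14 to 15 Mb. Input peaks (grey) are at 20.6, 11.1 and 7.4 per Mb there.

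On chromosome 4 the regions were denser in the first 20 Mb than in the rest. The short arm of this chromosome is known to descend from a microchromosome that is separate in most birds. The first 20 Mb had 100.8 regions per Mb, with 152 and 145 peaks per Mb in replicates 1 and 2, and the rest had 34.8, with 53.04 and 80.6. Input peaks were at 7.40 and 7.30 per Mb. Of the 2016 regions in the first 20 Mb, 967 lay in the outermost 5 Mb, an end like those described above. From 5 to 20 Mb there were 69.9 regions per Mb, and 32.2 in the rest without its last 5 Mb, a split added after the density of the ends was seen. Replicate 1 had 107 and 48.6 peaks per Mb in these stretches, replicate 2 had 115 and 76.4, and the input 8.13 and 7.53. The end and the descent of the arm cannot be told apart in the outermost 5 Mb. The longest gap of all, named above, lay at the border of these stretches. Whether it is missing sequence was not tested, so it is not read as a boundary of the mark.

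Z held the fewest regions per Mb of all chromosomes above 1 Mb. Its density relative to macrochromosomes was 0.449 for regions, 0.591 for replicate 1, 0.480 for replicate 2 and 0.956 for the input. The input value rests on 1 end: 313 of the 691 input peaks on Z lay in its last 5 Mb. Away from the outer 5 Mb, Z had 5.46 input peaks per Mb, and chromosomes 1 to 5 had 9.35. There replicate 1 had 36.9 and 60.2 per Mb, replicate 2 had 44.9 and 93.6, and regions 19.5 and 41.4. Outside the ends input peaks were thus sparser on Z too. They were called against the input's own background over 10 kb, so their density does not measure the depth of the input on Z. Over whole chromosomes, the ratio of Z to macrochromosomes for regions was 0.198 in the upper 50% by fold. In the upper 50% by tags and pileup it was 0.182. The stretch from 25 to 35 Mb, which holds the region studied for dosage compensation in birds, had 12.1 regions per Mb, against 24.1 before and 21.0 after it. Peaks there were at 26.9 and 35.7 per Mb in the replicates and 5.50 in the input. A single Z copy in females gives fewer tags, and neither sex nor copy number was known, so the density of called peaks and the level of the mark cannot be told apart on Z. On W there were 12 regions, with 27 and 51 H3R2me2s peaks and 41 input peaks.

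The shared regions dropped for an input peak were wider and stronger than those kept. Their median width was 728 bp, and the medians were 82 tags and a pileup of 129, against 52 and 75 for the kept regions. Input peaks covered a median of 23.5% of such a region. The dropped share grew with width, from 2.64% of shared regions of 300 to 499 bp to 12.4% at 1000 to 1999 bp and 36.9% at 2000 bp and above. Since 1 bp under input was enough, the rule itself drops wide regions more readily. How much of the difference in width comes from the rule was not tested. The dropped share of shared regions was 13.5% on Z, 6.74% on macrochromosomes, 4.16% on intermediate chromosomes and 3.99% on microchromosomes. Chromosome 16, which carries the major histocompatibility genes and ribosomal RNA genes of the chicken, lost 28.4% of its 116 shared regions, chromosome 25 lost 12.7% and chromosome 27 lost 9.74%. Regions next to the limit were alike on both sides: 1487 kept regions within 500 bp of an input peak had medians of 547 bp, 47 tags and a pileup of 130, and 740 dropped regions with at most 100 bp under input had 583 bp, 48 tags and a pileup of 114.5. The kept regions lay a median of 51.2 kb from the nearest input peak, and 3.34% were within 1 kb of one.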

How the data were processed

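The data were peak lists of 2 H3R2me2s libraries and 1 input library, 1 list per library. Per the file headers, replicate 1 was called with MACS 1.4.2 against a control of 23.3 M tags at a p-value cutoff of 1e-05, and the other lists with MACS 2.0.10.20120913 at a q-value cutoff of 0.05, with no control given. Folder names in the replicate 1 header hold gal3; aligner and build are otherwise not given in the sources used here. For replicate 1 the authors deposited the tag count of each peak, a score (the −log10 p-value multiplied by 10) and the false discovery rate in percent, which was not used. In the other lists the deposited values were the pileup signal at the summit and the −log10 of p and q. All lists gave fold enrichment, a ratio, as deposited. Some replicate 1 peaks tie at a −log10 p of 310.

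Regions were intersected, joined and compared in Python 3.11.15 with numpy 2.4.6 and pandas 2.3.3; interval code was tested on simulated data with known answers. Regions touching an input peak by 1 bp were dropped. Regions were named by rule: the 5 of best mean rank of −log10 p, the 5 widest, the 10 longest clusters, the 5 fullest bins of 100 kb and the 5 longest gaps. The regions, the lists and these rules were chosen with earlier results of these data known. The 2 libraries are on different platforms, so no spread between animals is given, and Wilson intervals cover counting error only. Replicate 1 was the shallower library, and the part of depth in which weak peaks were called was not tested. Gene and marker lists were not tested, since gene positions in this build were not used.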

Additional observations from a re-analysis of the deposited data

How the results depend on the processing

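Of 89 alternative values, 59 lay within the spread between the 2 lists (for counts within 1.5 times, for a share of regions within its Wilson interval). This spread is the SD of the 2 values found by leaving out a replicate, which are themselves among the alternatives. For the share in clusters it was 25.3 percentage points around 3.97%, so even 0% counted as unmoved. The count of 59 is therefore no measure of stability. Dropping regions within 1 kb of input as well, dropping none, a common p-value of 1e-05, an overlap of 50% of the shorter peak and a width of at least 100 bp moved none of the 8 values computed for each. Removing only the bases under input moved the ratio of Z to macrochromosomes to 0.534.

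Keeping the upper 50% by fold left 14710 regions covering 10.6 Mb, their median width was 651 bp, their median gap 28071 bp and no cluster was left, and the ratios to macrochromosomes or the interior were 1.77 for microchromosomes, 0.198 for Z and 1.36 for chromosome ends. Keeping the upper 50% by tags and pileup, a setting chosen after seeing the data, left 36317 regions covering 26.7 Mb. Their median width was 670 bp, their median gap 4082 bp and 3.85% of them were in clusters. The same ratios were 5.43, 0.182 and 4.05. The cause was not tested.

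Leaving out a replicate gave 99391 to 113142 peaks off input and 81.7 to 95.1 Mb. Median width was 600 to 700 bp, the median gap 1696 to 3664 bp and the share in clusters 3.30 to 39.1%. The ratios were 1.99 to 3.27 for microchromosomes, 0.465 to 0.576 for Z and 1.87 to 2.66 for ends. Without replicate 1 the microchromosome ratio fell to 1.99, and without replicate 2 the share in clusters was 39.1%. Clusters with gaps up to 5 kb held 36.1%, and with gaps up to 1 kb 0.483%. Chromosome ends of 2 and 10 Mb gave 3.38 and 1.88. Bins without a region numbered 6043 (29.2%) at 50 kb and 319 (6.16%) at 200 kb. With the upper 50% of input peaks 97.4% of shared regions were off input, and 99.2% when 50% of a region had to be covered.

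No paired analysis was possible because the groups compared share fewer than 2 replicate numbers: the input is a single library, numbered 1 only to name it.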
